A study of Rattus norvegicus with 6 samples.

Results

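Immediate early genes are transcribed within minutes of a stimulus such as serum or attachment to a surface, from factors already present in the cell, so their induction needs no new protein. The 8 genes described here are Fos, Jun, Junb, Egr1, Nr4a1, Dusp1, Atf3 and Myc (ENSRNOG00000008015, ENSRNOG00000026293, ENSRNOG00000042838, ENSRNOG00000019422, ENSRNOG00000007607, ENSRNOG00000003977, ENSRNOG00000003745 and ENSRNOG00000004500, in that order). They were chosen by Ensembl identifier as early response genes to adhesion and serum. The rule uses no measured value, but the choice was made with earlier results of these data known. All 8 were among the 19458 rat genes listed. Fos, Jun and Junb encode subunits of AP-1, a dimeric transcription factor whose Jun proteins can pair with each other or with Fos. Most of these transcripts are short-lived, and in many cell types they return towards their starting level within hours.

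The libraries came from primary rat bone marrow mesenchymal stem cells (stromal cells of the marrow that can form bone, cartilage and fat), given as wild type and grown in MEM with 10% fetal bovine serum and antibiotics at 37 °C and 5% CO2. Of the 6 libraries, 3 came from cells kept for 6 hours on titanium dioxide nanotubes of 100 nm and 3 from cells kept for 6 hours on a smooth surface. No library of cells before plating or at another time was analysed here, so the values are levels at 6 hours and not inductions. Whether libraries that share a surface are separate cultures or animals is not stated, and p-values here describe how these libraries scatter, for which technical sources may account.

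The table gives FPKM, fragments scaled by the length of the gene model and by the total of the library, and each library held between 16299799 and 17624390 counted reads. It pairs no identifier with a symbol, and the RefSeq gene table used here holds no Ensembl identifiers. The symbols are those given with the identifiers when the genes were chosen. A partial check was the gene length that the FPKM values imply. It was 3089 bases for Jun and 1783 bases for Junb, 2 genes without introns, against RefSeq gene spans of 3094 and 1785 bases. The other 6 lengths, 1589 to 3130 bases, were shorter than the RefSeq spans, which include introns. Further immediate early genes, adhesion genes and cell type markers could not be matched to identifiers, so they were not analysed here and the labelled cell type was not checked.

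A pair of libraries from different surfaces stood closest. Nanotube library 3 and smooth library 2 differed by a median of 0.10 on the log2(FPKM + 1) scale over the 11865 genes tested, against 0.13 to 0.33 for the other 14 pairs of libraries. The next closest pair was nanotube library 3 and smooth library 3 at 0.134, then smooth libraries 2 and 3 at 0.137. Nanotube library 3 lay 0.307 and 0.242 from nanotube libraries 1 and 2, and 0.241 from smooth library 1. Results for the 8 genes are therefore also given without nanotube library 3 and without smooth library 2 in turn. That choice was made from measured values. Over all tested genes, 6.1% had an unadjusted p under 0.05 with all 6 libraries (limma), 18.5% without nanotube library 3 and 4.48% without smooth library 2, so p-values without nanotube library 3 are to be read against 18.5%.

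Serum and adhesion signals reach several of these genes through serum response factor at CArG boxes and through CREB or ATF proteins at cAMP response elements. The RefSeq promoter table (build GRCr8) held 4 of the 8 genes, Egr1, Nr4a1, Dusp1 and Junb. The 250 bases before each start are shown because the genes were chosen as responders to these signals, with CArG boxes, TGACG cores and TGCGTCA elements in capitals, on either strand.
Egr1 chr18:26736828-26737077 (+ strand): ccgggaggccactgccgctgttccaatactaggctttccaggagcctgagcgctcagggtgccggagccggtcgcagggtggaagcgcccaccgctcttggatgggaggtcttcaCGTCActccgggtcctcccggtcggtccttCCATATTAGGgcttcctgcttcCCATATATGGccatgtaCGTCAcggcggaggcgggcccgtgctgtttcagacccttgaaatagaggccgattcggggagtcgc
Nr4a1 chr7:134259888-134260137 (+ strand): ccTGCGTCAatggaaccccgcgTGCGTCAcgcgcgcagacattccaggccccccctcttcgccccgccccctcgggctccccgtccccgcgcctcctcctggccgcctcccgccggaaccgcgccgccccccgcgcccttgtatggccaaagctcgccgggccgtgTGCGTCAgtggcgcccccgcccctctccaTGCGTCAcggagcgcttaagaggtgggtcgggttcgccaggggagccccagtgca
Dusp1 chr10:17184603-17184852 (+ strand): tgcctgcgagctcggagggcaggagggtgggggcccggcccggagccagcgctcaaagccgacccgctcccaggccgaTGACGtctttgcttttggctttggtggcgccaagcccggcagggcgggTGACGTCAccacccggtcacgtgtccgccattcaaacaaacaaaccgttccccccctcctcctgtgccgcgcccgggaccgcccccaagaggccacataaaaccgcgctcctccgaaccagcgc
Junb chr19:40080876-40081125 (+ strand): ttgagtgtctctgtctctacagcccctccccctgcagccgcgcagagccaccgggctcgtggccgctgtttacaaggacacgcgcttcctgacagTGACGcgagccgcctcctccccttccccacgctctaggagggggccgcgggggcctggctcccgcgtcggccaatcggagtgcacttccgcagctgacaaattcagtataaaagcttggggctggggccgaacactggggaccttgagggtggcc

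The Egr1 window held 2 CArG boxes, starting 105 and 83 bases before the start, and 2 TGACG cores. Of all 33469 promoter windows of that length, 1.5% held a CArG box and 18.2% a TGACG core. The Nr4a1 window held TGCGTCA 4 times, and each of these overlaps a TGACG core on the other strand; 1.66% of all windows held TGCGTCA at least once. In the table the Nr4a1 gene extends further upstream than this window, so other transcripts of the gene start before it. The Dusp1 window held 1 full cAMP response element, TGACGTCA, 124 bases before the start, which accounts for 2 of its 3 TGACG cores, and 1 E-box, CACGTG. These occurred in 1.59% and 5.59% of all windows. The Junb window held 1 TGACG core and no CArG box. No window of these 4 genes held an AP-1 site, TGANTCA, which 6.34% of all windows held, and the Egr site GCGNGGGCG occurred once, in Nr4a1, against 4.29% of all windows. These are matches of letters, and binding was not measured.

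Transcripts of all 8 genes were present at 6 hours in every library, at levels that spanned a wide range. Averaged over the 6 libraries, Junb stood highest at 124.7 FPKM and Dusp1 next at 107.5 FPKM, above 94.7% and 93.7% of the tested genes. Jun followed at 42.7, Myc at 40.7, Nr4a1 at 35.9 and Egr1 at 32.8 FPKM. Fos, at 8.60 FPKM, and Atf3, at 5.96 FPKM, lay below the median tested gene of 11.6 FPKM. FPKM is scaled by length, so these levels can be set beside each other. Egr1 exceeded Fos, and Dusp1 exceeded Jun, in 6 of 6 libraries. Neighbours within the middle group did not keep their order, since Jun exceeded Myc, Myc exceeded Nr4a1 and Nr4a1 exceeded Egr1 in 4 of 6 libraries each. Fos exceeded Atf3 in 4 of 6 libraries and Junb exceeded Dusp1 in 5 of 6.

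**Figure D1:**
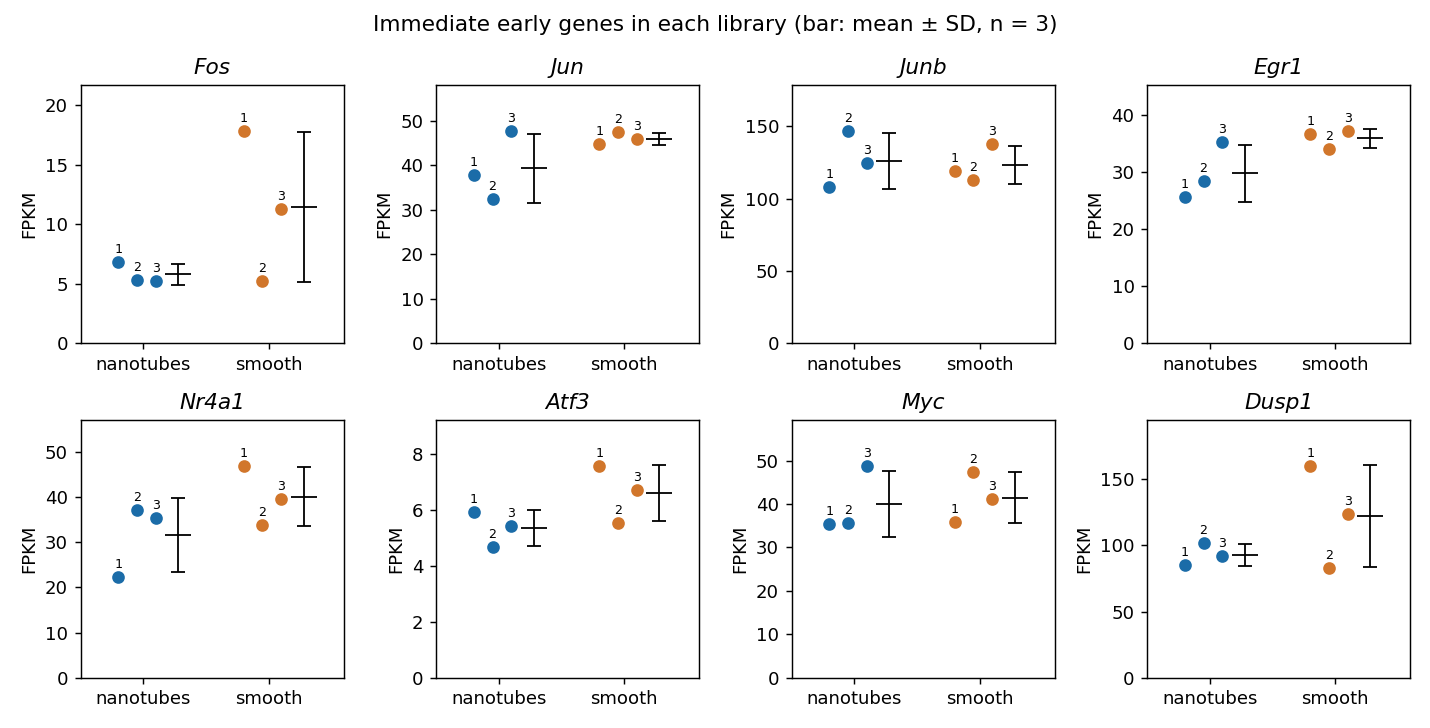
FPKM (y axes from 0, a scale of its own for each gene) of the 8 genes in the 3 nanotube (blue) and 3 smooth (orange) libraries, with the library number above each point and the mean ± SD at the right of each group. Fos and Dusp1 spread most among the smooth libraries, and in every panel the groups overlap.

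No gene of the 8 was shown to differ between the surfaces. By limma with Benjamini-Hochberg adjustment over all 11865 genes tested, 0 of the 8 passed an adjusted p of 0.05, as did 0 (0%) of all tested genes. The lowest adjusted p among the 8, 0.753, was also the lowest of any gene, because the adjustment gives the same value to a long run of genes. By unadjusted p, Egr1 ranked 1314th and Fos 1486th of the 11865 genes. At an unadjusted p under 0.05 there were 0 of the 8 and 724 (6.1%) of all genes. A voom fit on whole reads worked out from the FPKM values also called 0 genes, with 723 at an unadjusted p under 0.05. The means of 7 of the 8 were lower on nanotubes, where 59.5% of all tested genes had a lower mean. Their median log2 difference was -0.27, against -0.04 over all tested genes. In 0 of the 8 did all nanotube libraries lie on 1 side of all smooth libraries, which 12.2% of the tested genes did. The smallest p that an exact permutation test can give with 3 against 3 libraries is 0.1, and the 8 genes gave 0.2 to 0.8 (two-sided).

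Among the AP-1 subunits, Fos varied most. Its level was 6.78, 5.32 and 5.24 FPKM in nanotube libraries 1, 2 and 3, and 17.8, 5.22 and 11.3 FPKM in smooth libraries 1, 2 and 3. The nanotube libraries lay closer together, with library 1 at 1.28 and 1.30 times libraries 2 and 3. Smooth library 1 was highest of all, smooth library 2 was lowest of all and smooth library 3 stood between. The means were 5.78 ± 0.87 FPKM on nanotubes and 11.4 ± 6.3 FPKM on smooth (SD, n = 3 libraries each). The difference on the log2(FPKM + 1) scale was -0.74 with a standard error of 0.38 (95% interval -1.65 to 0.17, limma adjusted p = 0.753). This was the widest interval of the 8 and the only one of them that reached past a 2-fold change. These values rested on 190, 146 and 141 Fos reads in the nanotube libraries and on 461, 139 and 311 reads in the smooth libraries. Leaving out smooth library 2 gave a log2 difference of -1.17, standard error 0.22 (unadjusted p = 0.00229, adjusted p = 0.957 by limma), and without smooth library 1 it was -0.37 (standard error 0.30, adjusted p = 0.753 by limma). Leaving out nanotube library 3 gave -0.69.

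Jun, the usual partner of Fos, was nearly level over the smooth libraries, at 44.8, 47.5 and 45.9 FPKM, and stood at 37.9, 32.3 and 47.7 FPKM in nanotube libraries 1, 2 and 3. Nanotube libraries 1 and 2 lay below every smooth library and nanotube library 3 above every one. The means were 39.3 ± 7.8 on nanotubes and 46.1 ± 1.4 FPKM on smooth (SD, n = 3 libraries each). The log2 difference was -0.24 with a standard error of 0.15 (95% interval -0.60 to 0.12). Leaving out nanotube library 3 gave -0.39, standard error 0.11 (unadjusted p = 0.0133, adjusted p = 0.167 by limma; 18.5% of all tested genes were under 0.05 in that fit). Leaving out nanotube library 2 gave -0.11, standard error 0.14 (unadjusted p = 0.441, adjusted p = 0.984 by limma).

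Junb, the third AP-1 subunit, which is a weaker activator than Jun, showed no direction. It stood at 107.8, 146.6 and 124.5 FPKM on nanotubes and at 119.0, 112.8 and 137.7 FPKM on smooth. Its lowest and highest values were both in nanotube libraries, and the log2 difference of 0.03 (95% interval -0.32 to 0.38) turned to -0.08 without nanotube library 2 and to -0.03 without smooth library 2. Fos took 4.45%, 2.89% and 2.95% of the summed FPKM of the 3 subunits in nanotube libraries 1, 2 and 3. Its share in smooth libraries 1, 2 and 3 was 9.80%, 3.15% and 5.78%. In every library Junb was the most abundant of the 3 subunit transcripts and Fos the least.

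Egr1, a zinc finger transcription factor, stood at 25.6, 28.4 and 35.3 FPKM on nanotubes and at 36.6, 34.0 and 37.1 FPKM on smooth. Nanotube libraries 1 and 2 lay below every smooth library, and nanotube library 3 lay between smooth libraries 1 and 2. The means were 29.8 ± 5.0 and 35.9 ± 1.7 FPKM (SD, n = 3 libraries each), and the log2 difference was -0.27 with a standard error of 0.14 (95% interval -0.60 to 0.05). This was the smallest unadjusted p of the 8, 0.0841, at an adjusted p of 0.753 (limma). Leaving out nanotube library 3 gave -0.40, standard error 0.10 (unadjusted p = 0.00866, adjusted p = 0.147 by limma), in the fit that placed 2200 genes (18.5%) under an unadjusted p of 0.05. Leaving out nanotube library 1 gave -0.17, standard error 0.13 (unadjusted p = 0.223, adjusted p = 0.9996 by limma). With nanotube library 3 left out, Jun, Egr1 and Myc, 3 of the 8, lay lower in nanotube libraries 1 and 2 than in every smooth library. So did 26.4% of all tested genes. The margin for Myc was narrow, at 35.5 and 35.6 FPKM against 35.8 FPKM in smooth library 1. The fit without nanotube library 3 called 1 of all tested genes and 0 of the 8. It gave log2 differences of 0.03 for Junb, -0.45 for Nr4a1, -0.27 for Atf3, -0.21 for Myc and -0.34 for Dusp1. Without smooth library 2 in place of nanotube library 3, 0 genes were called, and the log2 differences were -0.22 for Jun, -0.03 for Junb, -0.31 for Egr1, -0.47 for Nr4a1, -0.36 for Atf3 and 0.04 for Myc.

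Nr4a1 encodes an orphan nuclear receptor. Its level was 22.3, 37.2 and 35.4 FPKM on nanotubes and 46.9, 33.9 and 39.5 FPKM on smooth. Nanotube library 1 stood lowest and smooth library 1 highest, 2.1-fold apart, and the other 4 libraries lay close together. The log2 difference was -0.35 with a standard error of 0.22 (95% interval -0.88 to 0.17), and without nanotube library 1 it was -0.13.

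Atf3, a stress-responsive member of the ATF/CREB family, had the lowest mean level of the 8, with 5.93, 4.65 and 5.41 FPKM on nanotubes and 7.55, 5.53 and 6.70 FPKM on smooth. Smooth libraries 1 and 3 were above every nanotube library, and smooth library 2 lay within the nanotube range. The log2 difference was -0.26 with a standard error of 0.15 (95% interval -0.61 to 0.09).

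Myc, a growth-promoting transcription factor of the basic helix-loop-helix type, stood at 35.5, 35.6 and 48.7 FPKM on nanotubes and at 35.8, 47.5 and 41.2 FPKM on smooth. Nanotube library 3 and smooth library 2 were its highest, whichever the surface, and nanotube libraries 1 and 2 and smooth library 1 lay together at the lower end. The log2 difference was -0.06 (95% interval -0.46 to 0.34), and it turned to 0.01 without nanotube library 1 or 2 and to 0.04 without smooth library 2.

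Dusp1 encodes a phosphatase that switches off MAP kinases, the kinases that induce many immediate early genes. It stood at 85.1, 101.7 and 92.2 FPKM on nanotubes and at 159.8, 82.9 and 123.5 FPKM on smooth. As for Fos, smooth library 1 was highest, smooth library 2 lowest and smooth library 3 second. The means were 93.0 ± 8.3 and 122.1 ± 38.5 FPKM (SD, n = 3 libraries each), and the log2 difference was -0.34 with a standard error of 0.24 (95% interval -0.91 to 0.22). Leaving out smooth library 2 gave -0.59, standard error 0.16 (unadjusted p = 0.0116, adjusted p = 0.957 by limma), and without smooth library 1 it was -0.12.

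**Figure D2:**
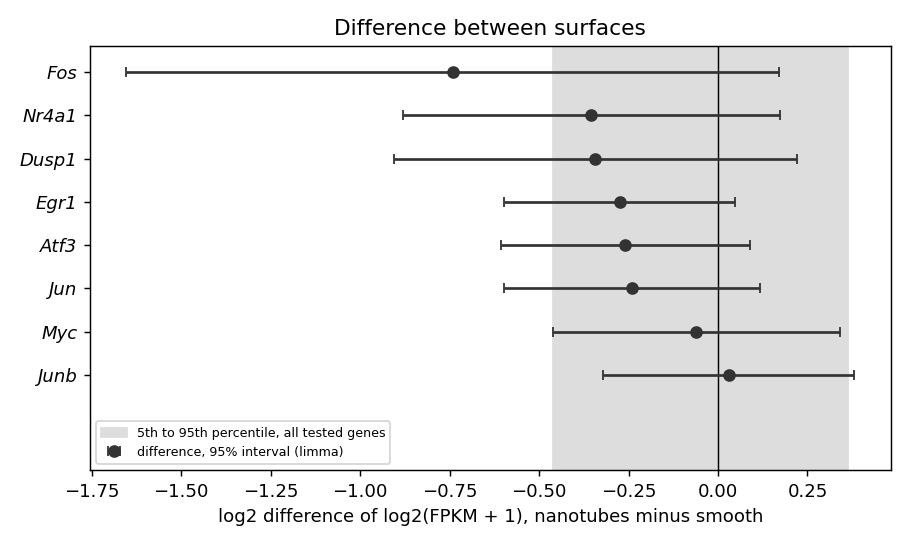
Difference between nanotubes and smooth for each gene (x axis, log2(FPKM + 1), nanotubes minus smooth; points with limma 95% intervals, 3 libraries per surface), over the range from the 5th to the 95th percentile of all tested genes (grey, -0.46 to 0.36). Every interval includes 0, and the point for Fos, at -0.74, is the one left of the grey range.

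The intervals of 7 of the 8 genes stayed inside a 2-fold change up or down, as did those of 85.9% of all tested genes. For Fos it ran from 0.318 to 1.13 times on the FPKM + 1 scale, which understates the change of a low gene, and from 0.284 to 1.14 times with a pseudocount of 0.1 in place of 1. They assume that the labels are right and the libraries independent.

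For 6 of the 8 genes, Fos, Jun, Junb, Nr4a1, Dusp1 and Myc, the larger of the 2 SDs within a surface exceeded the difference between surfaces on the log2(FPKM + 1) scale, as it did for 75.3% of all tested genes. In Fos and Dusp1 that spread lay in the smooth libraries. The SD of log2(FPKM + 1) among smooth libraries was 0.81 for Fos and 0.47 for Dusp1, at the 98.3rd and 93.4th percentile of the tested genes. Among nanotube libraries it was 0.18 and 0.13, at the 41.4th and 25.6th percentile of tested genes. In Jun it lay in the nanotube libraries, with 0.04 among smooth libraries (8.52nd percentile) and 0.27 among nanotube libraries (64.2nd percentile). Fos was 3.41-fold higher in smooth library 1 than in smooth library 2 (exact 95% counting interval 2.82 to 4.16), and Dusp1 was 1.93-fold higher (1.84 to 2.02). Of all tested genes, 1.67% were at least 2-fold higher in smooth library 1 than in smooth library 2 on the log2(FPKM + 1) scale, and Fos was the member among them. Myc went the other way, 1.33-fold higher in smooth library 2 (1.24 to 1.42). All counting intervals cover counting error only.

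**Figure D3:**
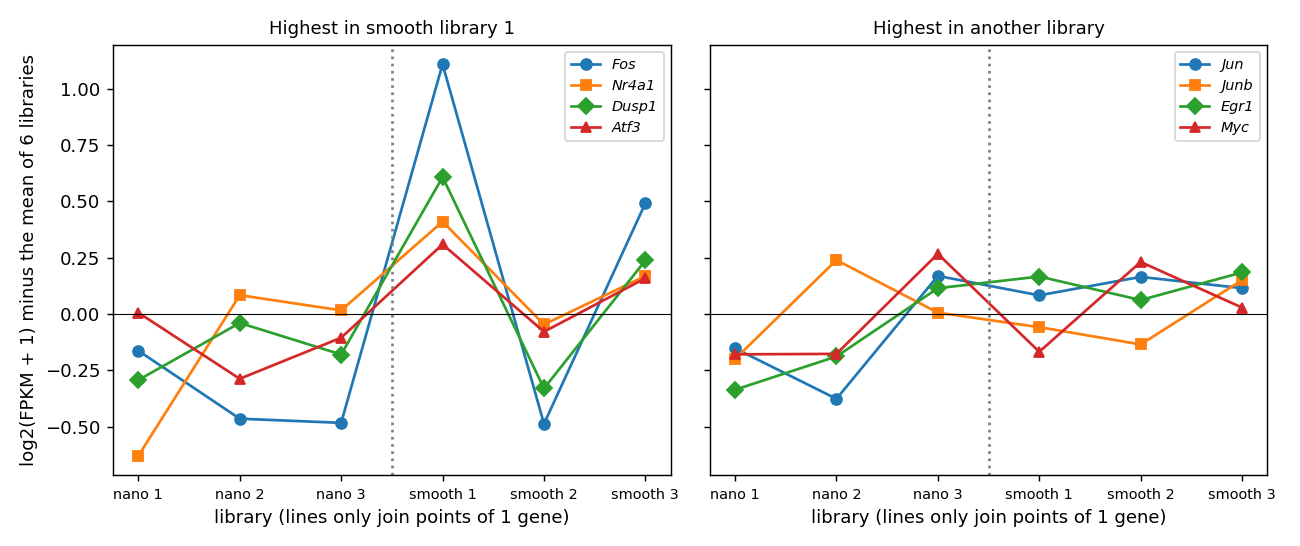
Each gene's log2(FPKM + 1) in the 6 libraries minus its own mean over them (y axis), for the 4 genes highest in smooth library 1 (left) and the other 4 (right), with nanotube libraries before the dotted line. Fos, Dusp1, Nr4a1 and Atf3 peak in smooth library 1, and Myc and Jun peak in nanotube library 3.

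Smooth library 1 held the highest value of 4 of the 8 genes, Fos, Nr4a1, Dusp1 and Atf3, and nanotube library 1 the lowest value of 4, Junb, Egr1, Nr4a1 and Myc. Of all tested genes, 14.2% were highest in smooth library 1 and 35.3% lowest in nanotube library 1. Smooth library 3 lay between the other 2 smooth libraries for 6 of the 8 genes, as it did for 67.8% of all tested genes. For Fos it stood at 0.98 times the mean of smooth libraries 1 and 2, for Dusp1 at 1.02 times and for Myc at 0.99 times. Junb, at 1.19 times, and Egr1, at 1.05 times, lay above both. Nanotube library 3 lay between the other 2 nanotube libraries for 4 of the 8 genes and for 24.0% of all tested genes.

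Nanotube library 3 and smooth library 2, from different surfaces, held nearly the same levels of these genes. Their ratio was 1.004 for Fos (exact 95% counting interval 0.79 to 1.28), 1.003 for Jun (0.95 to 1.06) and 1.03 for Myc (0.97 to 1.09). The counting interval left out a ratio of 1 for 2 of the 8 genes, Junb at 1.10 (1.05 to 1.16) and Dusp1 at 1.11 (1.05 to 1.17). In the other 14 pairs of libraries, pairs of the same surface included, it left out 1 for 5 to 8 of the 8 genes. Over all tested genes it left out 1 for 28.6% in this pair and for 39.0% to 68.6% in the others, so the count is not particular to these genes. The median difference over the 8 genes was 0.04 on the log2 scale for this pair and 0.20 to 0.44 for the others. Nanotube libraries 1 and 2 differed most in Nr4a1, which was 1.67-fold higher in library 2 (1.54 to 1.80), and in Junb, 1.36-fold higher (1.30 to 1.42), while their ratio was 0.999 for Myc (0.93 to 1.07). These ratios compare libraries, not conditions.

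**Figure D4:**
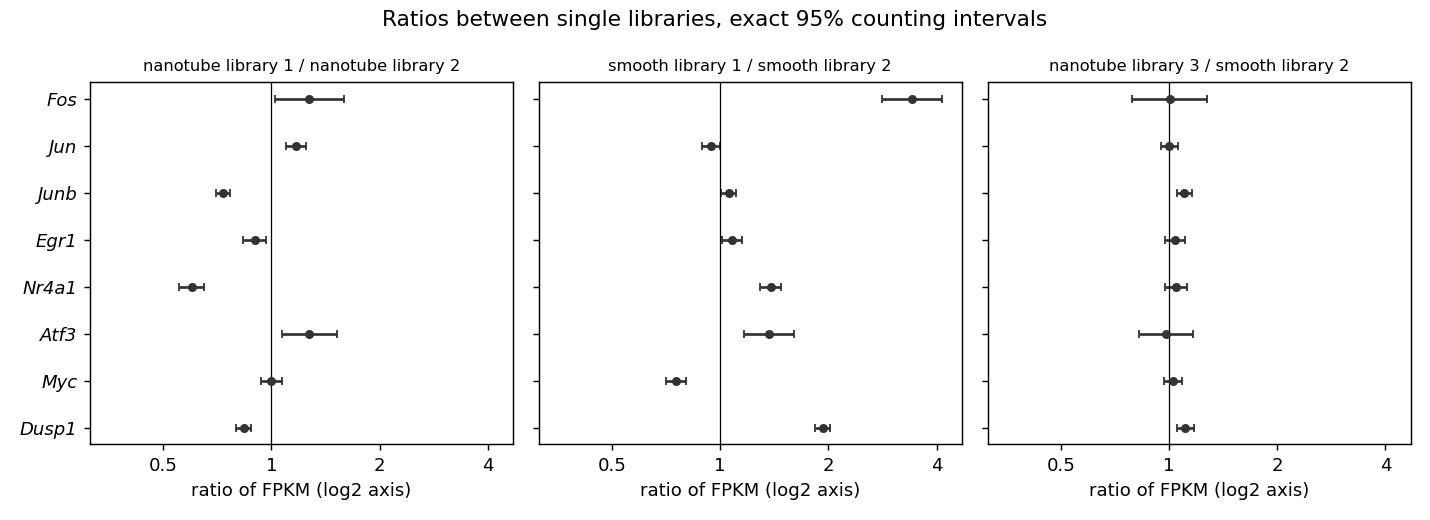
Ratio of FPKM between 2 libraries for each gene (x axis, log2 scale; bars are exact 95% counting intervals) for nanotube libraries 1 and 2, smooth libraries 1 and 2, and nanotube library 3 over smooth library 2. The last panel crosses the surfaces. Its median difference over the 8 genes was 0.04 on the log2(FPKM + 1) scale, against 0.27 in the first panel and 0.39 in the middle panel.

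Over the 6 libraries, no pair of the 8 genes passed adjustment among the 28 pairs (lowest adjusted p 0.233 by exact permutation, for Pearson and for Spearman). Fos and Dusp1 had a Pearson r of 0.92 and a Spearman rho of 0.83 (exact permutation p = 0.0181 and 0.0583, adjusted 0.253 and 0.544). Without the 2 libraries farthest from the median of Fos, smooth libraries 1 and 3, the r was -0.37. The r over all 6 libraries draws on those 2. Over the 4 left Fos spanned only 5.22 to 6.78 FPKM, so the r of -0.37 cannot show whether the relation holds. Fos and Atf3 had an r of 0.93 and a rho of 0.77 (exact permutation p = 0.00833 and 0.103, adjusted 0.233 and 0.576), and an r of 0.61 without those 2 libraries. Jun and Myc had an r of 0.73 and a rho of 0.94 (exact permutation p = 0.0708 and 0.0167, adjusted 0.376 and 0.233), and an r of 0.995 over the 4 libraries left without the 2 farthest from the median of Jun. Those 4, nanotube library 3 and the smooth libraries, spanned only 44.8 to 47.7 FPKM of Jun. That r therefore rests on small differences and does not show that the relation holds. The closeness of nanotube library 3 to smooth library 2 means that the 6 points may not be independent.

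Among the other 11864 tested genes, the profile most like that of Fos over the 6 libraries was ENSRNOG00000016608, at a Pearson r of 0.998, which the sources used here do not name. It stood at 3.998, 3.56 and 3.39 FPKM on nanotubes and at 6.90, 3.51 and 5.50 FPKM on smooth. An r above 0.9 with Fos was reached by 152 genes. The profile most like that of Egr1 was ENSRNOG00000022847, also unnamed, at an r of 0.996, and 694 genes had an r above 0.9 with Egr1. With 6 libraries and this many genes, the highest values are chosen from many and have no test.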

How the data were processed

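RNA was extracted with Trizol and 3 µg entered a NEBNext Ultra library preparation, per the labels' protocols. The authors deposited FPKM values for 19458 genes in 6 libraries. The submitters' processing notes list HISAT2 2.1.0, HTSeq and Bowtie 1.0.1 with no role for any, and mouse builds (mm10, GRCm38), although the identifiers are rat. Which rat annotation, strand setting and filters were used is not given in these sources, so reads of overlapping or antisense genes cannot be told apart. The columns numbered 3 match titles without a number, and that 3 is only a name.

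Whole reads and library totals were worked out from the FPKM values, and 100% of 116748 values came out whole (relative tolerance 1e-11). The main test was limma 3.58.1 (R 4.3.3, mean-variance trend) on log2(FPKM + 1) of 11865 genes averaging 1 FPKM or more, unscaled, adjusted by Benjamini-Hochberg at 0.05 and tested on simulated data. All 8 genes passed the filter. This scale understates changes of low genes. The 8 genes and all lists were chosen with earlier results of these data known. The lists were fixed by symbol and could not be matched. Also tried were other pseudocounts, filters and scaling, voom, left-out libraries and a replicate block. The named genes were the 8, plus at most 2 identifiers with the profiles most like Fos and Egr1. The permutation p-values of correlations were added after the data were seen.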

Additional observations from a re-analysis of the deposited data

How the results depend on the processing

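The number of genes changed between surfaces stayed at 0 under every alternative except the one without nanotube library 3, and leaving out 1 library gave 0 to 1. None of the 8 genes passed the threshold under any of 14 alternatives. Fos, Jun, Egr1, Nr4a1, Dusp1 and Atf3 kept a lower mean on nanotubes in all 14, with log2 differences of -1.17 to -0.37 for Fos, -0.39 to -0.11 for Jun, -0.40 to -0.17 for Egr1, -0.48 to -0.13 for Nr4a1, -0.59 to -0.12 for Dusp1 and -0.36 to -0.16 for Atf3. In the main fit 59.5% of all tested genes had a lower mean on nanotubes. The share of them that kept it in all 14 was not worked out, and the alternatives reuse the same libraries. Junb and Myc turned direction when 1 library was left out, over ranges of -0.083 to 0.14 and -0.21 to 0.040, and the cause was not tested. Median-of-ratios scaling moved the median log2 difference of all tested genes from -0.04 to 0.01 and that of the 8 from -0.27 to -0.21. Deviations of same-numbered libraries correlated at 0.32, -0.21 and 0.06, and pairing by number was not adopted. The replicate block on the libraries numbered 1 and 2 gave -0.62 for Fos and -0.38 for Egr1, with 0 genes changed. Fos and Atf3 have the fewest reads, 139 to 461 per library, and so the widest counting intervals.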
